A study of Mus musculus with 10 samples.

Results

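The genes described here make cholesterol and long-chain fatty acids, or control the making of them. The set holds 32 genes, chosen by name with earlier results of these data known. They are 17 enzymes of the sterol pathway, 5 genes of sterol sensing and transport, and 10 genes of fatty acid synthesis. Of these, 30 had a probe set that names a single gene, out of 19556 such genes in the table, and 29 were among the 17170 genes that passed a filter on low signal. FDFT1 and ACSL3 were not analysed here. STARD4, which carries cholesterol between membranes, read between 1.83 and 2.28 on the log2 scale on the 10 arrays and lay under the filter of 2.31.

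Cells build cholesterol from acetyl-CoA through mevalonate, isoprenoids and squalene, and build fatty acids from the same acetyl-CoA. Transcription factors called SREBPs switch on both routes: SCAP escorts them to the Golgi, where proteases release the active form, and INSIG1 holds them back when sterols are plentiful. SREBF2 is known mainly for driving the sterol enzymes and SREBF1 for driving the fatty acid enzymes, and in estrogen receptor positive breast cancer cells both routes feed membrane growth.

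Human breast cancer cells had been grown in female nu/nu mice aged 20 weeks, which lack a thymus, and all of the mice had received an estrogen pellet. In the E groups the pellet was still in place, and in the EWD groups (estrogen withdrawal) it had been taken out 1 week before. Tumor cells were laser captured from frozen sections of axillary lymph nodes carrying metastases (E mice 6, 11 and 14, EWD mice 9, 10 and 19) and of primary mammary gland tumors (E mice 11 and 14, EWD mice 10 and 19). The captured RNA was amplified by PCR and read on arrays of human 3′ probe sets, although the organism label is mouse. The labels do not name the cell line, so 10 arrays from 6 mice make up the data, and 4 mice gave tissue from both sites.

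Several arrays stood apart before any comparison was made. The E primary tumors of mice 11 and 14 had a compressed upper range, with a 99th percentile of 9.44 and 10.0 on the log2 scale against 11.4 to 11.7 on the other 8 arrays. In primary tumors the median E minus EWD difference ran from 0.11 for genes with a mean level under 4 to -1.90 for genes over 10. For that reason each result is given as deposited and again after quantile normalization, which forces all arrays onto 1 distribution. The E lymph node of mouse 11 scored 87.8 on the first principal component, close to both E primary tumors (87.1 and 93.8), while the other 7 arrays scored from -68.3 to 8.36. Hybridization control spikes averaged 9.47 to 10.6 on 6 arrays and 12.04 to 12.47 on the other 4 (LN E mouse 11, LN EWD mouse 19 and both EWD primary tumors), so in primary tumors this control level and estrogen state cannot be told apart. Luminal epithelial markers averaged 10.5 to 10.7 in EWD lymph nodes, 10.3 to 10.4 in EWD primary tumors, 9.21 to 10.1 in E lymph nodes and 8.09 to 8.29 in E primary tumors. These markers were KRT8, KRT18, KRT19, EPCAM, CDH1, ESR1, GATA3, FOXA1, TFF1 and MUC1, with medians from 4.4 (KRT19) to 14 (TFF1). ESR1, the estrogen receptor gene, itself ran from 5.44 to 12.7 over the arrays. Adipocytes would bring lipid genes of their own. Of 8 adipocyte markers, 6 read under 4 on every array, and the mean of all 8 stayed between 3.38 and 3.86. The others, CIDEC and CD36, read 5.85 to 6.37 and 6.81 to 11. With human probe sets and mouse hosts, these values cannot show whether host fat cells were present. In captured tissue a lower share of tumor cells, less RNA per tumor cell and the compressed signal range cannot be told apart.

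**Figure D1:**
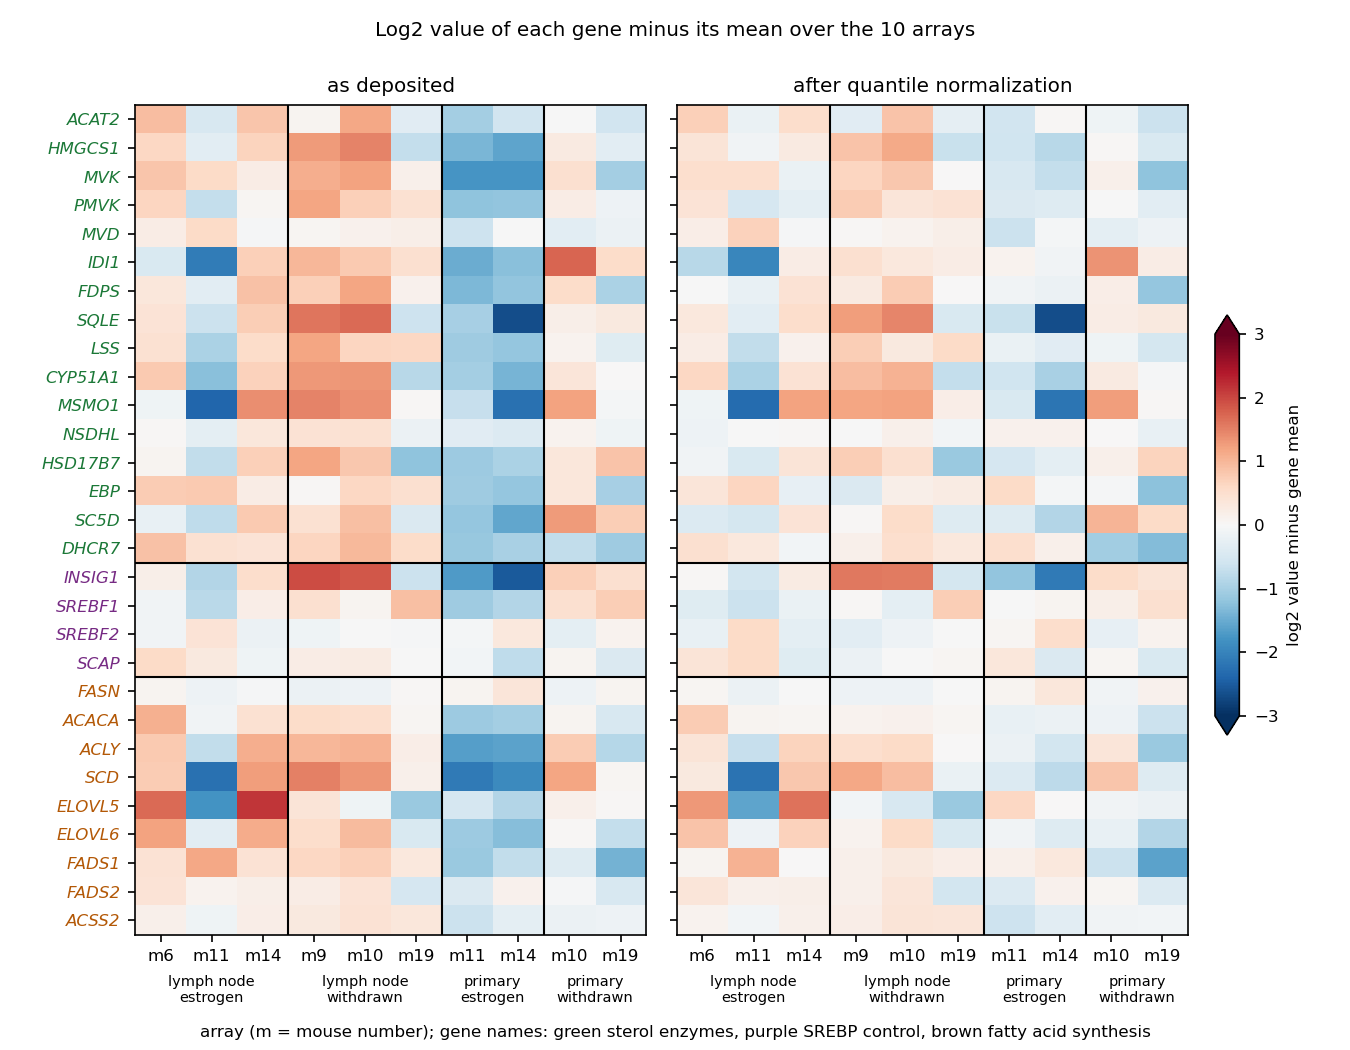
Log2 value of each of the 29 tested genes minus that gene's own mean over the 10 arrays, as deposited (left) and after quantile normalization (right), with arrays in columns and genes in rows. As deposited, the columns of the E primary tumors of mice 11 and 14 are blue for most genes, and much of that blue is gone after quantile normalization, while SQLE, MSMO1 and INSIG1 stay low there.

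The first question is whether estrogen alters these genes in lymph node metastases. Across the lymph nodes the sterol enzymes lay lower with estrogen than after withdrawal, and the fatty acid genes did not share that direction. The median E minus EWD difference was -0.37 over 16 sterol enzymes, of which 13 were below 0, and 0.11 over 9 fatty acid genes, of which 6 were above 0. Over all genes the median was -0.02, with 52.2% below 0. After quantile normalization the medians were -0.25 and 0.17, and set against genes of like mean level as deposited they were -0.21 and 0.16. None of the 29 genes passed limma's test at a Benjamini-Hochberg adjusted p of 0.05, and neither did any other gene (0% of 17170 genes). At an unadjusted p under 0.05 there was 1 of the 29 genes, SREBF1, against 1002 of all genes.

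At the head of the pathway, HMGCS1, which condenses acetyl-CoA units on the way to mevalonate, read 8.80, 7.87 and 8.85 in E lymph nodes and 9.46, 9.68 and 7.48 in EWD lymph nodes. The groups overlapped, because the EWD node of mouse 19 was the lowest of the 6. PMVK, the second kinase of the mevalonate route, read 8.75, 7.40 and 8.17 with estrogen and 9.30, 8.84 and 8.57 after withdrawal. Only the E node of mouse 6 reached into the EWD range, and the fitted difference was -0.79 ± 0.35 (SE, 3 against 3 arrays, limma adjusted p = 0.854).

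IDI1, which isomerizes the isoprenoid building blocks, had the lowest difference of the sterol enzymes. Its signal was 9.99, 8.36 and 11.16 in E nodes and 11.44, 11.24 and 10.94 in EWD nodes, a difference of -1.37 ± 0.63 (limma adjusted p = 0.878). The spread among the E nodes was wide, and mouse 14 lay within the EWD range. Without the E node of mouse 11 the difference was -0.63.

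LSS, which closes squalene epoxide into lanosterol, was the sole sterol enzyme whose groups did not overlap. It read 8.71, 7.31 and 8.81 with estrogen and 9.44, 8.90 and 8.88 after withdrawal, a difference of -0.80 ± 0.39 (limma adjusted p = 0.901). Such a gap between the lower E and the higher EWD nodes was present in 5.46% of all genes, and in LSS and ACSS2 among the 29. The E node of mouse 14 and the EWD nodes of mice 10 and 19 were less than 0.1 apart.

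MSMO1, a demethylase of the lanosterol steps, read 4.57, 2.31 and 6.07 in E nodes against 6.18, 6.06 and 4.73 in EWD nodes. The low value belonged to mouse 11, and the other 5 nodes were between 4.57 and 6.18. SQLE, the oxygenase that turns squalene into its epoxide, read 6.09, 5.03 and 6.40 against 7.28, 7.37 and 5.05. Mice 9 and 10 were high after withdrawal, and mouse 19 was as low as the lowest E node.

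Of the control genes, INSIG1, whose own transcription SREBPs raise, read 7.51, 6.46 and 7.87 with estrogen and 9.29, 9.19 and 6.70 after withdrawal. The EWD nodes of mice 9 and 10 stood above all E nodes, while mouse 19 did not, and the difference was -1.12 ± 0.68 (limma adjusted p = 0.927). SREBF1 read 8.82, 8.12 and 9.14 against 9.40, 9.01 and 9.82, with a difference of -0.72 ± 0.31 (limma adjusted p = 0.854). The E node of mouse 14 was above the EWD node of mouse 10 by little more than 0.1. SREBF2 and SCAP differed by 0.09 and 0.10.

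The fatty acid genes pointed several ways. SCD, the desaturase that makes oleate, read 12.38, 9.37 and 12.87 with estrogen against 13.12, 12.93 and 11.77 after withdrawal. Its difference of -1.07 ± 0.85 (limma adjusted p = 0.941) was 0.01 without the E node of mouse 11, the sole low array. ELOVL5, which lengthens polyunsaturated fatty acids, was high in the E nodes of mice 6 and 14 (10.31 and 10.75), low in mouse 11 (6.82) and between in the EWD nodes (9.01, 8.49 and 7.50). Its difference was 0.97 ± 0.91 (limma adjusted p = 0.946). ACSS2, which makes acetyl-CoA from acetate, read 3.53, 3.26 and 3.58 in E nodes, all below the 3.68, 3.83 and 3.72 of EWD nodes, on a scale where the array medians were 2.70 to 2.83. FASN, the fatty acid synthase, read 2.80 to 3.34 on all 10 arrays, near those medians, so its probe sets carry little information on its level here.

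The lymph node medians depended on single arrays and on the hybridization control level. Without the E node of mouse 11 the sterol median was -0.06 and the fatty acid median 0.19, and without the EWD node of mouse 19 they were -0.83 and -0.09. Among the arrays with low controls (2 E and 2 EWD nodes) the medians were -0.50 for sterol enzymes and -0.02 for fatty acid genes. Between the single E and the single EWD node with high controls they were -0.14 and -0.18.

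The same question was then asked of the primary tumors, where 2 E tumors were compared with 2 EWD tumors. As deposited, all 16 sterol enzymes were lower with estrogen, with a median difference of -1.32, where 55.9% of all genes lay below 0, and 7 of 9 fatty acid genes were lower, with a median of -0.80. The median over all genes was -0.10. Most genes on the array are dimmer than these, and set against genes of like mean level, 8 of 16 sterol enzymes were below the median of their level, with a median gap of -0.02, and 3 of 9 fatty acid genes, with a median gap of 0.31. The deposited shift of the sterol enzymes was thus about that of genes of like level. Of the 29 genes SC5D and SREBF1 fell at an adjusted p under 0.05 and none rose, where 6.94% of all genes fell and 0.879% rose. After quantile normalization the sterol median was -0.20 with 10 enzymes below 0 and 6 above (45.7% of all genes lay below 0), the fatty acid median was 0.20 with 7 of 9 genes above 0, and over all genes it was 0.06. On that scale none of the 29 fell and DHCR7 alone rose, against 0.582% and 0.757% of all genes. Luminal epithelial markers moved beside these genes, with 4 of 10 called lower with estrogen as deposited and a median of -2.67. After quantile normalization 1 of these 10 markers was called lower, with a median of -1.15. Their part in the result was not tested.

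**Figure D2:**
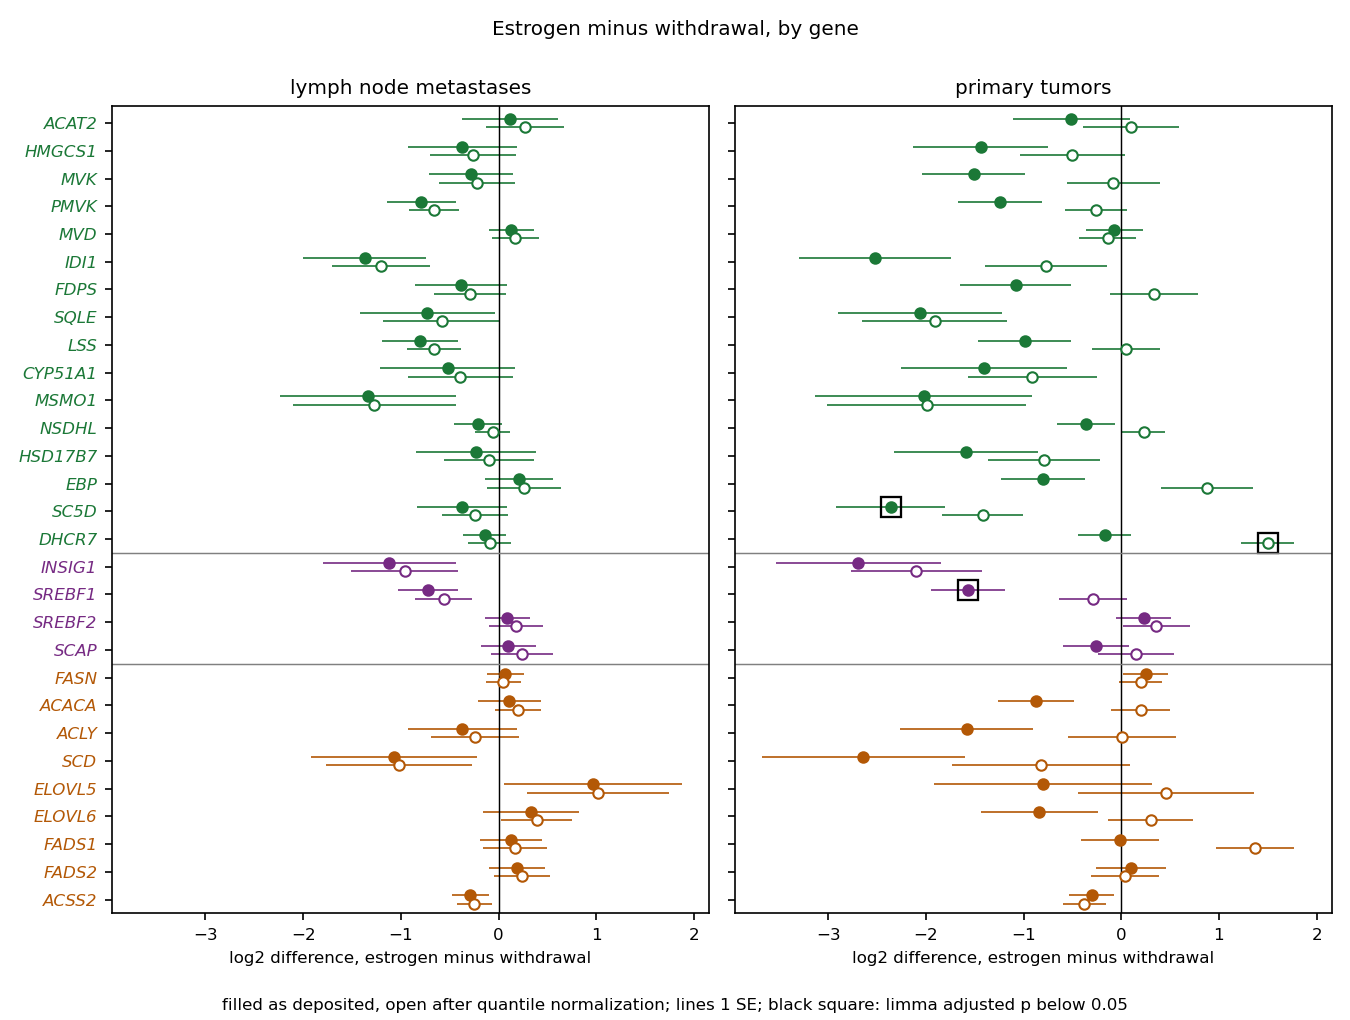
Log2 difference between E and EWD samples for each of the 29 genes, in lymph node metastases (left) and primary tumors (right), with filled points as deposited, open points after quantile normalization and lines of 1 SE. In primary tumors the filled points of all 16 sterol enzymes are left of 0, while the open points are spread on both sides, from -1.99 for MSMO1 to 1.50 for DHCR7.

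SC5D, which sets the double bond of lathosterol near the end of the pathway, read 6.81 and 6.40 in E tumors and 9.24 and 8.72 in EWD tumors. Both E tumors were far below both EWD tumors, and the difference was -2.36 ± 0.56 (SE, 2 against 2 arrays, limma adjusted p = 0.0389). After quantile normalization it was -1.42 ± 0.41 (limma adjusted p = 0.11). A further SC5D probe set with a mean of 2.23 differed by 0.14.

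SREBF1 read 7.88 and 8.06 with estrogen and 9.40 and 9.67 after withdrawal. The groups were apart, with a difference of -1.57 ± 0.38 (limma adjusted p = 0.0421), which shrank to -0.29 ± 0.35 (limma adjusted p = 0.669) after quantile normalization. A second probe set, with a mean of 2.88, differed by 0.07. Both calls depended on the lymph node arrays too, since these share in the estimate of the spread: SC5D and SREBF1 stayed called on leaving out LN E mouse 11, LN E mouse 14 or LN EWD mouse 19, and neither was called on leaving out any other array. Without LN E mouse 11 the calls numbered 7 and added PMVK, IDI1, LSS, INSIG1 and SCD. Calls over all genes rose as well, to 3168 lower and 396 higher, against 1191 and 151 with that array kept. That array is no primary tumor, and without it the primary tumor differences stayed at -2.53 for IDI1 and -2.64 for SCD.

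In the mevalonate and isoprenoid steps, IDI1 read 8.95 and 9.20 in E tumors and 12.20 and 11.00 in EWD tumors, a difference of -2.52 ± 0.78 (limma adjusted p = 0.0821). The E tumors were lower by well over 1 unit, and after quantile normalization the difference was -0.77 ± 0.62. HMGCS1 read 6.83 and 6.61 against 8.46 and 7.87, with -1.44 ± 0.69 as deposited and -0.50 ± 0.54 after quantile normalization. MVK, mevalonate kinase, read 8.25 and 8.26 against 10.51 and 9.02. Its difference went from -1.51 to -0.08 between the scales.

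In the squalene and lanosterol steps some enzymes differed little between the scales. SQLE read 4.68 and 3.01 with estrogen and 5.86 and 5.97 after withdrawal, a difference of -2.06 ± 0.84 as deposited and -1.91 ± 0.74 after quantile normalization (limma adjusted p = 0.163 and 0.186). The E tumor of mouse 14 was the lowest array of the 10. Another SQLE probe set, with a mean of 5.48 beside 5.67 for the one used, went the other way, at 0.98 in primary tumors and 0.56 in lymph nodes, so the direction of SQLE depends on the probe set. MSMO1 read 4.0 and 2.46 against 5.89 and 4.63, with -2.02 ± 1.11 and -1.99 ± 1.02 on the respective scales (limma adjusted p = 0.289 and 0.297). LSS, by contrast, went from -0.99 to 0.05 and FDPS, the farnesyl diphosphate synthase, from -1.08 to 0.34.

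INSIG1 had the lowest primary tumor difference among all 29 genes on either scale. It read 5.63 and 4.82 with estrogen and 8.05 and 7.81 after withdrawal, with no overlap. The difference was -2.69 ± 0.84 as deposited (limma adjusted p = 0.0832) and -2.10 ± 0.67 after quantile normalization (limma adjusted p = 0.132). Another INSIG1 probe set, with a mean of 6.92, differed by -0.75 and a dim one, with a mean of 2.68, by 0.40.

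DHCR7, the last enzyme of the pathway, read 8.97 and 9.14 in E tumors and 9.39 and 9.05 in EWD tumors. The deposited groups overlapped, with a difference of -0.17 ± 0.27. After quantile normalization the difference was 1.50 ± 0.27 (limma adjusted p = 0.0425), so the sign of this gene turned with the scaling. FADS1, the delta-5 desaturase of polyunsaturated fatty acids, behaved the same way, at -0.01 ± 0.40 as deposited and 1.37 ± 0.40 after quantile normalization (limma adjusted p = 0.112). Without LN E mouse 11, FADS1 passed on the quantile scale, at 1.36 ± 0.31 (limma adjusted p = 0.0302). In that fit 798 of all genes were called higher and 1095 lower.

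Among the other fatty acid genes, SCD read 9.49 and 9.71 in E tumors and 12.79 and 11.66 in EWD tumors. E tumors were lower with no overlap, with a difference of -2.64 ± 1.04 as deposited (limma adjusted p = 0.15) and -0.82 ± 0.91 after quantile normalization. ACLY, which makes cytosolic acetyl-CoA from citrate, read 8.57 and 8.62 against 10.98 and 9.38. Its difference of -1.58 ± 0.68 became 0.01 ± 0.55. ACACA, the carboxylase that commits acetyl-CoA to fatty acids, went from -0.87 to 0.20 and ELOVL6, an elongase of saturated chains, from -0.84 to 0.30. ELOVL5 went from -0.80 to 0.46.

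**Figure D3:**
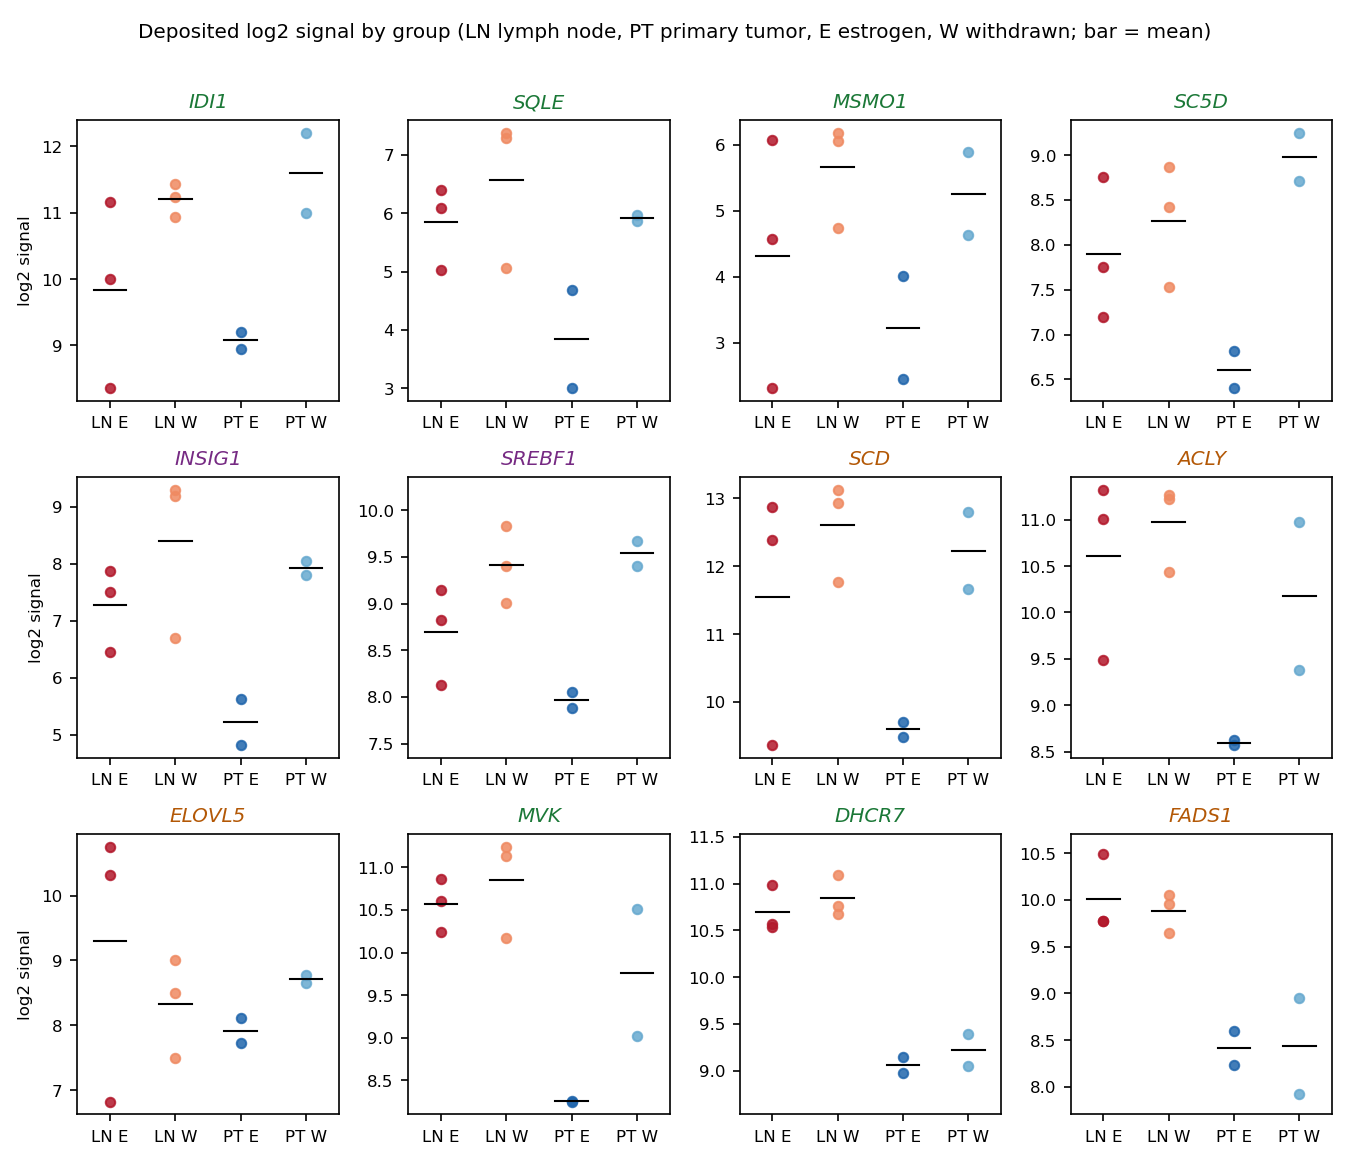
Deposited log2 signal of 12 genes on each array, with 1 point per array, a bar at the group mean, and the groups in the order lymph node E, lymph node EWD, primary tumor E and primary tumor EWD. The E primary tumors have the lowest group mean for each of the 12 genes, by little for DHCR7 and FADS1. As deposited, DHCR7 and FADS1 separate lymph nodes from primary tumors whatever the pellet state. After quantile normalization, which is not drawn here, the E groups overlap for DHCR7 and FADS1.

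As deposited, whole groups did not overlap for 21 of the 29 genes in primary tumors, all of them lower with estrogen. Of all genes 38.3% were lower without overlap. After quantile normalization 12 of the 29 were lower without overlap (26.8% of all genes) and 4 higher (31.1% of all genes). Most genes on the array are dimmer than these, and no such share was taken among genes of like level. As deposited, 8 of 16 sterol enzymes and 3 of 9 fatty acid genes were below the median difference of their level. Taking both sites, 13 of the 29 genes lay lower with estrogen at each of the sites and on both scales, compared with 29.5% of all genes. They were the sterol enzymes HMGCS1, MVK, PMVK, IDI1, SQLE, CYP51A1, MSMO1, HSD17B7 and SC5D (9 of 16), the control genes INSIG1 and SREBF1 (2 of 4), and SCD and ACSS2 (2 of 9 fatty acid genes). Without LN E mouse 11 the deposited lymph node differences of CYP51A1, HSD17B7 and SCD were 0.14, 0.15 and 0.01. The remaining genes named stayed lower with estrogen there, SC5D by only -0.01. Another SQLE probe set of like brightness went the other way, at 0.56 in lymph nodes and 0.98 in primary tumors. The sites were not independent here, since mice 10, 11, 14 and 19 gave both.

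Sterol and fatty acid genes were also set against each other on each array, as the median centred level of the sterol enzymes minus that of the fatty acid genes. As deposited this gap was -0.33, -0.42 and 0.22 in E lymph nodes and 0.52, 0.44 and 0.03 in EWD lymph nodes, and 0.00 and -0.30 in E primary tumors against 0.28 and 0.30 in EWD primary tumors. The sterol genes thus stood higher relative to the fatty acid genes after withdrawal in both primary tumors and in the nodes of mice 9 and 10, with overlap in the lymph nodes (mice 14 and 19). On the quantile scale the lymph node gaps were -0.09, -0.11 and 0.08 with estrogen against 0.41, 0.17 and 0.01 after withdrawal. The primary tumor gaps were -0.27 and -0.15 against 0.21 and 0.15. The same arrays overlapped, and the primary tumors again did not.

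**Figure D4:**
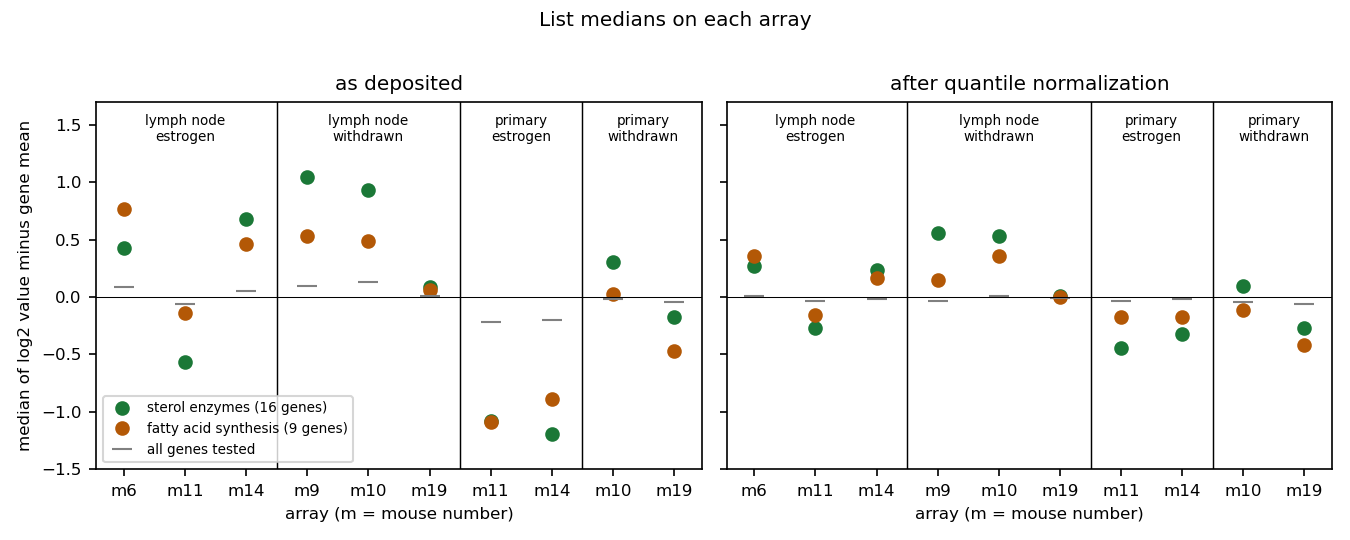
Median over the 16 sterol enzymes, the 9 fatty acid genes and all genes tested of the log2 value minus the gene's mean, on each of the 10 arrays, as deposited and after quantile normalization. Sterol medians of the EWD nodes of mice 9 and 10 (1.05 and 0.93 as deposited) are the highest and those of the E primary tumors (-1.08 and -1.19) the lowest.

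The title of the study speaks of estrogen insensitivity in lymph node metastases, so the difference between the estrogen responses at the lymph node and at the primary site was tested itself. None of the 29 genes passed, against 0.0116% of all genes, and 1 of the 29, SC5D, had an unadjusted p under 0.05. The median difference of responses was 0.79 for sterol enzymes and 0.98 for fatty acid genes as deposited, against 0.15 for all genes. Set against genes of like mean level, these medians were -0.21 and -0.11. On the quantile scale the medians were 0.01 and 0.00. SC5D differed in response by 2.00 ± 0.74 (limma adjusted p = 0.361) and by 1.17 ± 0.55 after quantile normalization. SREBF1 differed by 0.86 ± 0.50 and -0.27 ± 0.46 on the same scales.

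Without LN E mouse 11, SCD and ELOVL5 passed this test of responses as deposited, at 2.65 ± 0.68 (limma adjusted p = 0.0481) and 3.01 ± 0.60 (limma adjusted p = 0.0248). In that fit 1442 of all genes passed above 0 and 101 below, so such calls were not particular to these 2 of the 29 genes. With estrogen the lymph nodes of mice 6 and 14 held ELOVL5 at 10.31 and 10.75 against 8.11 and 7.73 in the primary tumors of mice 11 and 14. After quantile normalization without that array none of the 29 genes passed.

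The site comparison asks how metastases differed from primary tumors under a given pellet state. With estrogen, 5 genes were higher in lymph nodes and none lower, where 7.81% of all genes were higher and 0.949% lower. They were MVK, EBP and DHCR7 of the sterol enzymes and ACACA and FADS1 of the fatty acid genes. All 16 sterol enzymes were above 0, with a median of 1.26, where 67.6% of all genes were above 0, and 8 of 9 fatty acid genes, with a median of 1.55, against a median of 0.26 for all genes. Set against genes of like mean level the medians were 0.36 and 0.26. After quantile normalization the medians were 0.39 and 0.38, that of all genes was 0.02, and none of the 29 genes passed, where 0.0757% of all genes were higher and 0.384% lower. In this setting 4 of the 29 had an unadjusted p under 0.05, against 2082 of all genes. As deposited, 6 of 10 luminal epithelial markers were higher in these lymph nodes by the same test, with a median of 1.68. After quantile normalization 0 of the 10 passed, with a median of 0.46. The part of these markers in the result was not tested.

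DHCR7 gave the lowest adjusted p. It read 10.99, 10.57 and 10.54 in E lymph nodes against 8.97 and 9.14 in E primary tumors, well apart, with a difference of 1.65 ± 0.25 (SE, 3 against 2 arrays, limma adjusted p = 0.0084). On the quantile scale it was -0.08 ± 0.25. It stayed called in 9 of 10 fits that left out 1 array, and not on leaving out PT E mouse 11.

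MVK read 10.86, 10.61 and 10.24 in the E lymph nodes against 8.25 and 8.26 in the E primary tumors, a difference of 2.32 ± 0.49 (limma adjusted p = 0.0229). The groups were about 2 units apart, and the difference after quantile normalization was 0.88 ± 0.45. Of its other probe sets, those with means of 7.10 and 5.53 were higher by 1.08 and 0.75 and 1 with a mean of 3.55 was at -0.45. EBP, a sterol isomerase, read 10.83, 10.85 and 10.29 against 8.99 and 8.92, a difference of 1.71 ± 0.40 (limma adjusted p = 0.0343) that was 0.00 ± 0.44 after quantile normalization. The other EBP probe sets, with means of 6.13, 4.13 and 2.44, differed by 0.30, -0.42 and -0.12.

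ACACA read 9.46, 8.29 and 8.85 in E lymph nodes and 7.29 and 7.37 in E primary tumors, with a difference of 1.55 ± 0.36 (limma adjusted p = 0.0342) as deposited and 0.50 ± 0.28 after quantile normalization. The other ACACA probe set, with a mean of 5.54, differed by 0.07. FADS1 read 9.77, 10.49 and 9.78 against 8.24 and 8.60, with 1.59 ± 0.37 (limma adjusted p = 0.0325) and 0.14 ± 0.38. All lymph nodes were above all primary tumors in both genes as deposited. FASN, with its dim probe sets, was the sole gene of the 29 lower in lymph nodes without overlap (9.98% of all genes were). Its difference was -0.25 ± 0.21, and LN E mouse 6 and PT E mouse 11 both read 3.047 when rounded. The other FASN probe set, with a mean of 2.27, differed by 0.19.

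Single arrays moved the count of 5. Without LN E mouse 11 it gained ACAT2, HMGCS1, PMVK, FDPS, LSS, SC5D, SREBF1, ACLY, SCD, ELOVL5 and ELOVL6. It was then 16, where 3502 of all genes were higher and 348 lower, against 1341 and 163 with that array kept. It was 0 without PT E mouse 11, and DHCR7 alone remained without LN E mouse 6 or without PT E mouse 14. MVK and DHCR7 remained without LN EWD mouse 9 or 10. With mouse as a fixed block none passed, nor did any other gene, and the adjusted p of these 5 ran from 0.149 to 0.203. Among the arrays with low hybridization controls, which left out mouse 11's lymph node, the sterol median was 1.66 and the fatty acid median 1.83.

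**Figure D5:**
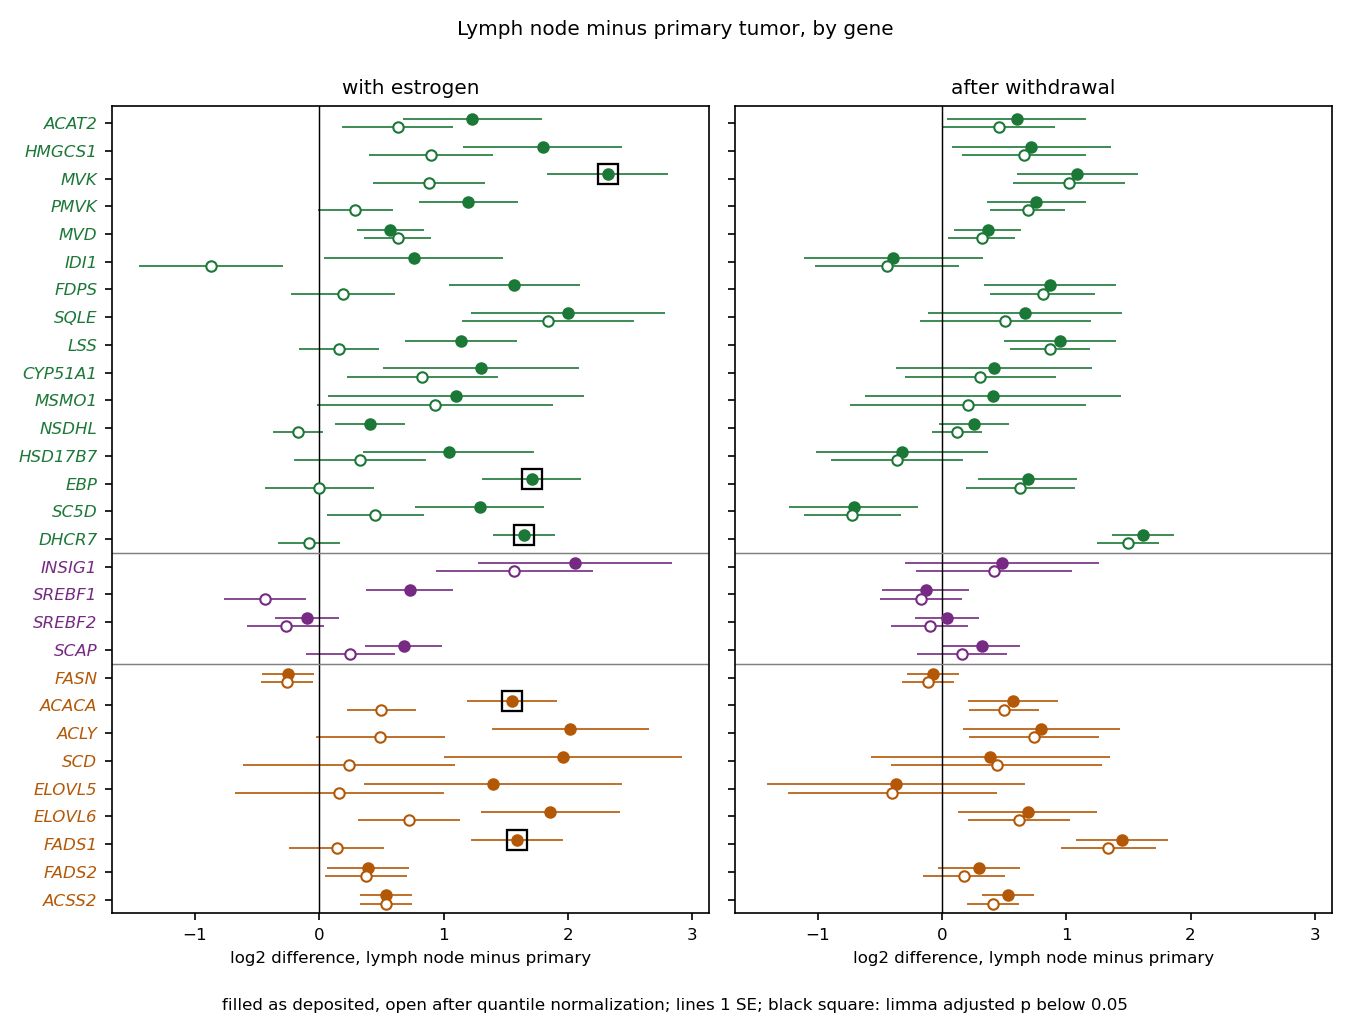
Log2 difference between lymph node and primary tumor for each of the 29 genes, with estrogen (left) and after withdrawal (right), with filled points as deposited, open points after quantile normalization and lines of 1 SE. With estrogen most filled points move toward 0 on quantile normalization, whereas after withdrawal filled and open points of a gene lie side by side.

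After withdrawal, arrays of both sites had like upper ranges, and the normalization mattered less. None of the 29 genes passed limma's test, nor did any other gene (0%), while 3 of the 29 and 1723 of all genes had an unadjusted p under 0.05. The sterol median was 0.64 as deposited and 0.49 after quantile normalization, with 13 of 16 enzymes above 0 on both scales (56.6% and 51.4% of all genes), and the fatty acid median was 0.53 and 0.44. All genes had a median of 0.07 as deposited. Among the arrays with high hybridization controls, which leave the lymph node of mouse 19 against both primary tumors, the medians were -0.09 and 0.06.

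DHCR7 and FADS1 had the highest lymph node minus primary tumor differences of the 29 genes after withdrawal. DHCR7 read 10.76, 11.09 and 10.68 in EWD lymph nodes against 9.39 and 9.05 in EWD primary tumors, with no overlap. Its difference was 1.62 ± 0.25 (limma adjusted p = 0.122) as deposited and 1.50 ± 0.25 (limma adjusted p = 0.206) after quantile normalization, and it passed on leaving out LN E mouse 11 (limma adjusted p = 0.0488). FADS1 read 9.95, 10.05 and 9.65 against 8.95 and 7.92, a difference of 1.45 ± 0.37 (limma adjusted p = 0.255) and of 1.34 ± 0.38 after quantile normalization. The remaining FADS1 probe sets differed by 1.31 and 1.66 in the same direction, and the dim second DHCR7 probe set by 0.24.

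MVK read 11.13, 11.24 and 10.17 in EWD lymph nodes and 10.51 and 9.02 in EWD primary tumors, overlapping through mice 19 and 10, with a difference of 1.09 ± 0.49. ACSS2 read 3.68, 3.83 and 3.72 against 3.20 and 3.23, a gap of 0.53 ± 0.21 (limma adjusted p = 0.458). IDI1 and SC5D lay the other way, with lymph node minus primary tumor differences of -0.39 ± 0.72 and -0.71 ± 0.52. Neither IDI1 nor SC5D passed the test.

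Within the 4 mice that gave both sites, the sterol median was higher in the lymph node by 0.44 (mouse 11, E), 1.83 (mouse 14, E), 0.51 (mouse 10, EWD) and 0.18 (mouse 19, EWD). The fatty acid medians were 0.53, 1.48, 0.42 and 0.25. After quantile normalization mouse 11 turned to -0.11 for sterol enzymes and -0.06 for fatty acid genes, and the other 3 mice stayed above 0. As deposited 7 sterol enzymes, 5 fatty acid genes and 1 control gene were higher in the lymph node in 4 of 4 mice, where 16.6% of all genes were. After quantile normalization these were 3, 2 and 0 genes, against 9.11% of all genes.

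Other genes of the pathway came from lists chosen by function, also with earlier results of these data known. Of 11 genes tested for sterol uptake, sensing and transport, 11 were below 0 with estrogen in primary tumors as deposited (median -1.14), where 55.9% of all genes were. After quantile normalization 8 of 11 were below 0 (median -0.70), where 45.7% of all genes were. MBTPS1 alone fell by limma's test at an adjusted p under 0.05 as deposited, where 6.94% of all genes fell. None of the 11 passed after quantile normalization. Neither this list nor those that follow were set against genes of like level. As deposited, genes with a mean level of 6 to 8, 8 to 10 and over 10 had median differences of -0.77, -1.31 and -1.90 in primary tumors. MBTPS1 is the site-1 protease that makes the first cut in releasing SREBPs. It read 8.0 and 7.93 in E primary tumors against 10.79 and 11.97 in EWD primary tumors, and 10.61, 8.34 and 10.76 in E lymph nodes against 11.68, 11.13 and 10.61 in EWD lymph nodes. The primary tumor groups were apart, with a difference of -3.42 ± 0.78 (limma adjusted p = 0.0351) and -2.03 (adjusted p = 0.118) after quantile normalization, while the lymph nodes overlapped at -1.24 ± 0.63 (limma adjusted p = 0.91).

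LPCAT3, a phospholipid acyltransferase switched on by the oxysterol receptor LXR, was the sole gene of 6 tested on the LXR list that passed. Of the 6, 3 were above 0 in primary tumors as deposited and 3 below (median -0.16, lowest -2.57, E minus EWD). On the quantile scale 4 were above 0 and 2 below, with a median of 0.24. LPCAT3 read 12.21 and 12.20 in E primary tumors, above the 99th percentile of those arrays (9.44 and 10.0), and 9.45 and 9.72 in EWD primary tumors. It was higher with estrogen by 2.62 ± 0.65 (limma adjusted p = 0.0453) and by 3.89 (limma adjusted p = 0.0467) after quantile normalization. Of all genes 0.879% were called higher as deposited and 0.757% after quantile normalization. E lymph nodes read 9.20, 10.56 and 8.96, below both E primary tumors. The difference was -2.64 ± 0.60 (limma adjusted p = 0.0316) as deposited, where 0.949% of all genes were called lower. After quantile normalization it was -3.93 (limma adjusted p = 0.0561).

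Among 20 further genes of fatty acid synthesis and its supply, HACD3 (a dehydratase of chain elongation, -3.48 ± 0.72) and IDH1 (a cytosolic source of NADPH, -2.93 ± 0.38) fell with estrogen in primary tumors as deposited, and none rose. Of all genes 6.94% fell and 0.879% rose as deposited. After quantile normalization HACD3 and IDH1 were at -1.83 and -1.16, and neither passed. In lymph nodes none of the 20 passed, and the gene furthest from 0 by limma's statistic was ME1, malic enzyme, another source of NADPH. ME1 read 9.17, 8.72 and 9.54 in E nodes against 6.86, 8.33 and 6.75 in EWD nodes, higher with estrogen without overlap, by 1.83 ± 0.42 (limma adjusted p = 0.345) and 1.87 after quantile normalization.

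Of 7 fatty acid oxidation genes, which break down what the pathway makes, ACADM (-2.48 ± 0.64) and HADHB (-2.30 ± 0.48) fell with estrogen in primary tumors as deposited, where 6.94% of all genes fell, and none passed in lymph nodes. After quantile normalization they were at -2.12 (adjusted p = 0.087) and -1.12 (adjusted p = 0.127), and neither passed. None of 6 further sterol synthesis genes and none of 8 glycerolipid genes passed at either site. Between sites with estrogen, TM7SF2 (a sterol reductase, 2.80 ± 0.70) and OSBP (an oxysterol binding protein, 1.91 ± 0.35) were higher in lymph nodes as deposited by limma's test. So were ELOVL1 (1.86 ± 0.21), IDH1 (2.32 ± 0.36), HADHA (2.07 ± 0.24) and HADHB (1.80 ± 0.45). By list these were 1 of 6 further sterol synthesis, 1 of 11 sterol transport, 2 of 20 fatty acid synthesis and 2 of 7 oxidation genes. Over all genes 7.81% were higher. None of the genes named here passed after quantile normalization. TM7SF2 and ELOVL1 kept differences of 2.70 ± 0.70 (limma adjusted p = 0.258) and 1.67 ± 0.21 (limma adjusted p = 0.0789) after withdrawal, where they were 2.45 and 1.56 after quantile normalization.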

How the data were processed

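The deposited values were log2 signals of 61359 probe sets on 10 arrays, made by the authors with RMA in Partek, per the submitters' processing notes, which give no version. Probe sets naming a single gene (44532) were reduced to the brightest per gene over the 10 arrays. Genes at or above the 25th percentile of mean signal (2.31) were tested, 17170 of 19556.

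A model with the 4 groups was fitted with limma 3.58.1 in R 4.3.3, with mouse as a random block, because 4 mice gave both sites (correlation of paired deviations -0.21 to 0.176; consensus correlation -0.0415). The 5 contrasts were adjusted by Benjamini-Hochberg over all genes, and a gene passed at an adjusted p under 0.05. Levels were also matched by bands of mean signal (under 4, 4 to 6, 6 to 8, 8 to 10 and over 10). The fit was tested on simulated data. Fold differences are on the log2 scale, with no pseudocount. The number of arrays limits the precision, and scan depth does not apply.

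Alternatives were quantile normalization, no filter, the mean over probe sets, no block or a fixed mouse block, and leaving out each array. Another was hybridization control level, entered as low or high, as a covariate. Quantile normalization without LN E mouse 11 was added after seeing the data. Members and lists were chosen with earlier results of these data known. Values on every array are given for genes that passed on either scale and for those with the greatest statistic in each comparison, with further members at other steps of the pathway added after their values were seen. No sequences were used.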

Additional observations from a re-analysis of the deposited data

Results flagged for a closer look

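As deposited, SC5D differed between lymph node and primary tumor in opposite directions by pellet state: it was higher in the lymph node in both E mice with both sites (11 and 14) and lower in both EWD mice (10 and 19), a gap of 2.16 on the log2 scale between the mean within-mouse differences. This sign pattern was not tested on its own, and 10.5% of all genes showed such a split one way or the other. After quantile normalization the split did not hold: the difference was -0.14 in mouse 11 and 1.28 in mouse 14, against -0.46 in mouse 10 and -0.96 in mouse 19.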

How the results depend on the processing

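Counts below are of all genes and then of the 29 genes that passed limma's test, and medians are of sterol and then fatty acid genes. As deposited, the lymph node comparison of E with EWD gave 0 and 0, the primary tumor comparison 1342 and 2, the difference of responses 2 and 0, lymph node against primary tumor 1504 and 5 with estrogen, and 0 and 0 after withdrawal.

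Quantile normalization gave 230 and 1 in primary tumors (medians -0.20 and 0.20), with 56.5% of the calls higher against 11.3% as deposited, 1 gene for responses (medians 0.01 and 0.00), and 79 and 0 between sites with estrogen (medians 0.39 and 0.38), with 16.5% higher against 89.2%. DHCR7 reversed to 1.50 in primary tumors and to -0.08 between sites with estrogen. Quantile normalization without LN E mouse 11 gave 7 genes in lymph nodes, 1893 and 2 in primary tumors (DHCR7 and FADS1, both higher with estrogen; medians -0.19 and 0.21), 38 genes for responses (medians 0.12 and 0.20), 459 and 0 between sites with estrogen (medians 0.50 and 0.61), and 1 gene after withdrawal. There DHCR7 reversed to 1.51 in primary tumors, and DHCR7, EBP and FADS1 reversed to -0.13, -0.19 and -0.18 between sites with estrogen.

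The mean over a gene's probe sets gave 2 genes in lymph nodes, 682 and 0 in primary tumors (sterol median -0.49), 1 for responses (fatty acid median 0.39), 834 and 0 between sites with estrogen (fatty acid median 0.81) and 1 after withdrawal. Hybridization control level as a covariate gave 2 genes in lymph nodes, 5634 and 20 in primary tumors (medians -1.99 and -1.51), 3390 and 11 for responses (medians 1.73 and 1.62), 4491 and 19 between sites with estrogen, and 1078 and 1 after withdrawal (medians -0.13 and -0.04). With no filter on low signal 4 genes passed for responses. The cause of these shifts was not tested.

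Mouse as a fixed block, which uses the pairing within mice, gave 0 genes for responses and 0 and 0 between sites with estrogen, where 2501 of all genes and 9 of the 29 had an unadjusted p under 0.05. Leaving the replicate block out changed no call among the 29 genes.

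Leaving out 1 array in turn moved the counts of all genes from 0 to 9 in lymph nodes, 5 to 3564 in primary tumors, 0 to 1543 for responses, 181 to 3850 between sites with estrogen and 0 to 42 after withdrawal. Of the 29 genes these fits called 0 in lymph nodes, 0 to 7 in primary tumors, 0 to 2 for responses, 0 to 16 between sites with estrogen and 0 to 1 after withdrawal, and in the last 4 of these comparisons the highest count was without LN E mouse 11. The sterol medians ran from -0.83 to -0.06, -1.62 to -0.86, 0.32 to 1.31, 0.99 to 1.67 and 0.16 to 0.99 in the same order. The fatty acid medians ran from -0.09 to 0.19, -0.96 to -0.39, 0.36 to 1.31, 1.24 to 1.82 and 0.06 to 0.89.

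Limits were the 2 primary tumors per state, the compressed signal of both E primary tumors, and dim probe sets for FASN, FADS2, MVD, ACSS2 and SREBF2.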
